A study of Saccharomyces cerevisiae with 8 samples.

Results

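The genes described here encode the core enzymes of lower glycolysis in the budding yeast Saccharomyces cerevisiae: FBA1, TPI1, TDH1, TDH2, TDH3, PGK1, GPM1, ENO1, ENO2 and CDC19. They were taken by name from a list of highly transcribed genes of that stretch of the pathway. Whether each of them, TDH1 included, was highly transcribed in these cultures was not tested. They are 10 of the 6002 nuclear protein-coding genes considered. Each was followed from 1000 bp upstream of its coding sequence to its end. Nucleosome positions came from MNase-seq, which sequences the fragments that nucleosomes shield from micrococcal nuclease, here as 2 reads of 75 bp per fragment. The treated group was 4 cultures given 1,10-phenanthroline at 100 µg/ml for 30 min at 30 °C, and the other group was 4 untreated cultures. All cultures were in rich medium (YPD), synchronised in G1, of the PPY1 line and mating type a, with his3Δ0, leu2Δ0, met15Δ0, ura3Δ0 and bar1::leu2. Each group held 1 culture of each of 4 strain numbers. By the labels every strain also carried an 81 bp insertion in 2 genes: CKB2 and DGK1 in strain 1, PPT1 and SLM3 in strain 2, TRP4 and PAN5 in strain 3, and UBX5 and BSP1 in strain 4. None of these is a glycolytic gene, and no culture without an insertion was analysed here. The comparison is of phenanthroline with no treatment. Phenanthroline is used to stop transcription in yeast, and whether the differences below come from stopped transcription was not tested.

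Lower glycolysis turns fructose bisphosphate into pyruvate. Its main enzymes are among the most abundant proteins of a yeast cell growing on glucose. The genes of these main enzymes are driven by strong promoters that bind Rap1 and Gcr1. Nucleosomes in such genes are evicted and replaced as RNA polymerase passes, so coding sequences transcribed at high rates usually carry weak or irregular nucleosomes. Phenanthroline chelates zinc and other metals and is not specific to RNA polymerase, and no RNA level was analysed here.

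Each deposited nucleosome call has a position, a height score that follows the local coverage by fragments, a width score that follows how tightly fragments line up, and a score that is the mean of both. All 3 run on a scale up to 1. The dyad is the middle of a call. The libraries held 72649 to 75086 calls, and their read depth was not analysed here, so no counting interval could be attached to a score. MET17 and URA3, which the met15Δ0 and ura3Δ0 alleles remove, had 0 calls in each of the 8 libraries. The labels of the insertions went against the calls at every site. Both libraries with label 1 had the shift of 81 bp beyond BSP1 and beyond UBX5. Both with label 2 had it beyond DGK1 and beyond CKB2. With label 3 it lay beyond SLM3 and beyond PPT1, and with label 4 beyond PAN5 and beyond TRP4, again in both libraries. The shift touched TPI1, TDH3 and ENO1 in the libraries labelled strain 3 and ENO2 in those labelled strain 4. After it was subtracted, these genes lay within -3.0 to 2.0 bp of the other libraries, against 78.0 to 83.0 bp before. Groups rest on the treatment label, and strain numbers below are those of the labels. Over the whole genome 47.5% to 51.5% of calls were of the well-positioned class in phenanthroline libraries, against 53.0% to 56.8% in untreated libraries. The class takes calls whose width score reaches 0.6 and whose height score reaches 0.4. In the windows of the glycolytic genes the share was 25.2% to 30.6% with phenanthroline and 29.5% to 36.2% without. The part of this library-wide difference in the results that follow was not tested.

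Calls were joined into 73428 consensus positions, of which 81.9% were called in all 8 libraries. In the 10 windows 92 of 139 positions, or 66.2%, were called in every library, and only these could be tested one by one. Coding sequences held 57 of them, the 250 bp upstream of the start held 10 of 21, and the stretch farther upstream held 25. No position of these windows was called in all 4 libraries of one treatment and none of the other, while 92 positions of the genome appeared in that way under phenanthroline and 106 disappeared. Upstream of the start the glycolytic genes had wide steps between consensus positions called in at least 4 of the 8 libraries. The widest such step was 404 bp at FBA1, 366 bp at TPI1, 324 bp at TDH1, 470 bp at TDH2, 418 bp at TDH3, 424 bp at PGK1, 364 bp at GPM1, 471 bp at ENO1, 372 bp at ENO2 and 210 bp at CDC19. CDC19 alone of the 10 lay under the median of 279 bp over 5888 genes. A step of 350 bp or more, a limit set after the values were seen, was found in 8 of the 10 genes and in 17.5% of all genes. Inside these steps FBA1, TPI1, TDH3, PGK1 and ENO1 had a further call in 1 library, TDH1 in 2 and CDC19 in 3.

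**Figure D1:**
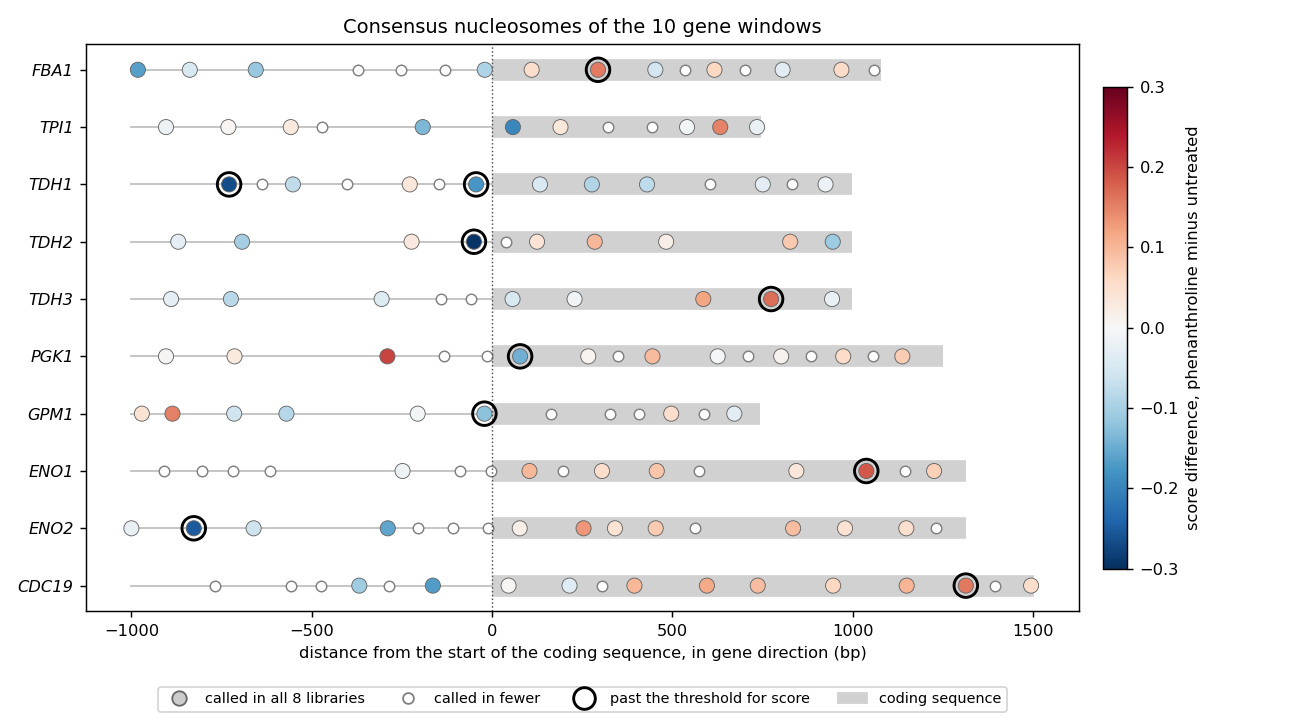
Consensus nucleosomes of the 10 genes by distance of the dyad from the start of the coding sequence (bp, in the direction of the gene), coloured by the phenanthroline minus untreated difference in nucleosome score, with small open points for those not called in all 8 libraries and rings for those past the threshold. The nucleosomes called higher with phenanthroline lie in coding sequences, and 5 of the 6 called lower lie upstream of the start.

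Within coding sequences the score was averaged over all calls of a gene in a library. ENO1, an enolase, which converts phosphoglycerate to phosphoenolpyruvate, had gene-body scores of 0.587, 0.557, 0.583 and 0.625 in the phenanthroline libraries labelled strains 1 to 4, against 0.511, 0.525, 0.485 and 0.530 in the untreated ones. All 4 phenanthroline values lay above all untreated values. The difference was 0.0751 (SE 0.0194, n = 4 each), and it passed limma's test with Benjamini-Hochberg adjustment over 5094 genes (adjusted p = 0.0451). The adjusted p was 0.213, 0.137 and 0.153 without the strain 1, strain 3 and strain 4 libraries, and 0.0686 when calls scoring under 0.4 were dropped. ENO1 was the only gene of the 10 called in gene-body score, where 3.16% of all genes were called higher and 3.65% lower.

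The other 9 genes did not pass that test. FBA1, the aldolase that splits fructose bisphosphate, averaged 0.596 ± 0.0462 with phenanthroline and 0.522 ± 0.0172 untreated (SD, n = 4 each), with an adjusted p of 0.0785 (limma). Like ENO1 it had no overlap between the groups, as did 7.54% of all genes in that direction. Its mean also took in a weak call at +1059 bp in 3 untreated libraries (0.206 to 0.313), with none under phenanthroline. CDC19, the pyruvate kinase of the last step, averaged 0.615 ± 0.0346 with phenanthroline and 0.541 ± 0.0412 untreated (adjusted p = 0.0935, limma). TDH3, the main glyceraldehyde-3-phosphate dehydrogenase, averaged 0.620 ± 0.0279 with phenanthroline and 0.548 ± 0.0439 untreated (adjusted p = 0.0942, limma), and reached an adjusted p of 0.0472 with strain number as a block. The groups of CDC19 and TDH3 overlapped. Gene-body means take whichever calls a library has. Summed over libraries, coding calls with phenanthroline and untreated were 30 and 32 at FBA1, 40 and 46 at CDC19 and 27 and 31 at TDH3. At ENO1 they were 37 and 35. The part of call numbers in these differences was not tested. Phosphoglycerate mutase GPM1 differed by 0.0558, enolase ENO2 by 0.0606, phosphoglycerate kinase PGK1 by 0.0203, TDH2 by 0.0179 and triose phosphate isomerase TPI1 by 0.0150, with adjusted p-values of 0.247 to 0.756 (limma). TDH1 had the only negative difference, -0.0582 (adjusted p = 0.194, limma). With 1 strain left out ENO2 ran from 0.0253 to 0.1003 and TDH1 from -0.0805 to -0.0360.

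The median difference of the 10 genes was 0.0582, against -0.00597 over all genes fitted. Their median level was 0.6002 with phenanthroline and 0.548 untreated, where the median over all genes was 0.681 with phenanthroline and 0.688 untreated. TPI1 stood lowest of the 10, at the 3.57th percentile of all genes with phenanthroline and the 3.51st untreated. ENO1 stood at the 19.0th percentile with phenanthroline and the 5.24th untreated, and FBA1 at the 21.6th with phenanthroline and the 6.48th untreated. TDH1 was the only member above the median gene, at the 54.4th percentile with phenanthroline and the 68.7th untreated. When each library's scores were centred on its own median, the median gene moved to a difference of 0.0179 and 4 of the 10 passed, namely FBA1, TDH3, ENO1 and CDC19. Over all genes centring gave 527 calls higher and 100 lower, where the fit without it gave 161 higher and 186 lower.

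Of the 2 parts of the score, height gave the calls. Gene-body height rose in 4 of the 10 genes and fell in none, where 8.93% of all genes were called higher and 5.48% lower. The median difference was 0.114 in the 10 genes and 0.00445 over all genes. ENO1 had height scores of 0.685, 0.628, 0.662 and 0.726 with phenanthroline, against 0.524, 0.524, 0.503 and 0.570 untreated. Its difference was 0.145 (SE 0.0258, adjusted p = 0.00899, limma), with the lowest phenanthroline value above the highest untreated one. FBA1 had 0.676, 0.696, 0.779 and 0.615 with phenanthroline, against 0.592, 0.546, 0.527 and 0.578 untreated. The FBA1 groups did not overlap, which held for 12.5% of all genes in that direction, and the difference was 0.131 (SE 0.0338, adjusted p = 0.0321, or 0.0552 with the strain block, limma).

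TDH3 had gene-body height scores of 0.707, 0.720, 0.639 and 0.672 with phenanthroline, against 0.626, 0.610, 0.489 and 0.543 untreated. These groups did not overlap either, and the difference was 0.117 (SE 0.0334, adjusted p = 0.0448, limma). CDC19 had 0.770, 0.798, 0.649 and 0.747 with phenanthroline, against 0.555, 0.59999, 0.523 and 0.686 untreated, a difference of 0.150 (SE 0.0417, adjusted p = 0.0411, limma). Here the untreated strain 4 library lay above the phenanthroline strain 3 library. GPM1 differed by 0.116, with an adjusted p of 0.156, or 0.0387 with the strain block (limma). ENO2 differed by 0.111 (adjusted p = 0.127), PGK1 by 0.0563 (0.357), TDH2 by 0.0437 (0.518), TPI1 by 0.0356 (0.613) and TDH1 by -0.0580 (0.297), with the adjusted limma p in brackets. Leaving out the 2 libraries of 1 strain number cut the 4 calls to 0 without strain 1, 1 without strain 2, 2 without strain 3 and 2 without strain 4. ENO1 was lost only without strain 1 (adjusted p = 0.0852), while the TDH3 call was lost in every case (0.0740 to 0.162). FBA1 kept its call only without strain 4 (0.0464) and CDC19 only without strain 3 (0.0456). Among the differences in height that did not pass, ENO2's ran from 0.0656 to 0.170 with 1 strain left out, PGK1's from 0.0212 to 0.108, TDH2's from 0.000563 to 0.0883, TDH1's from -0.0882 to -0.0225 and TPI1's from -0.00805 to 0.0549. Over all genes the share called also dropped when strains were left out, to between 1.53% and 11.8% from 14.4%.

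In gene-body width score no gene of the 10 passed limma's test, 1 (TDH1) had an unadjusted p under 0.05, and the smallest adjusted p was 0.142, while 4% of all genes were called. The median width difference was -0.00335 in the 10 genes and -0.0171 over all genes.

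**Figure D2:**
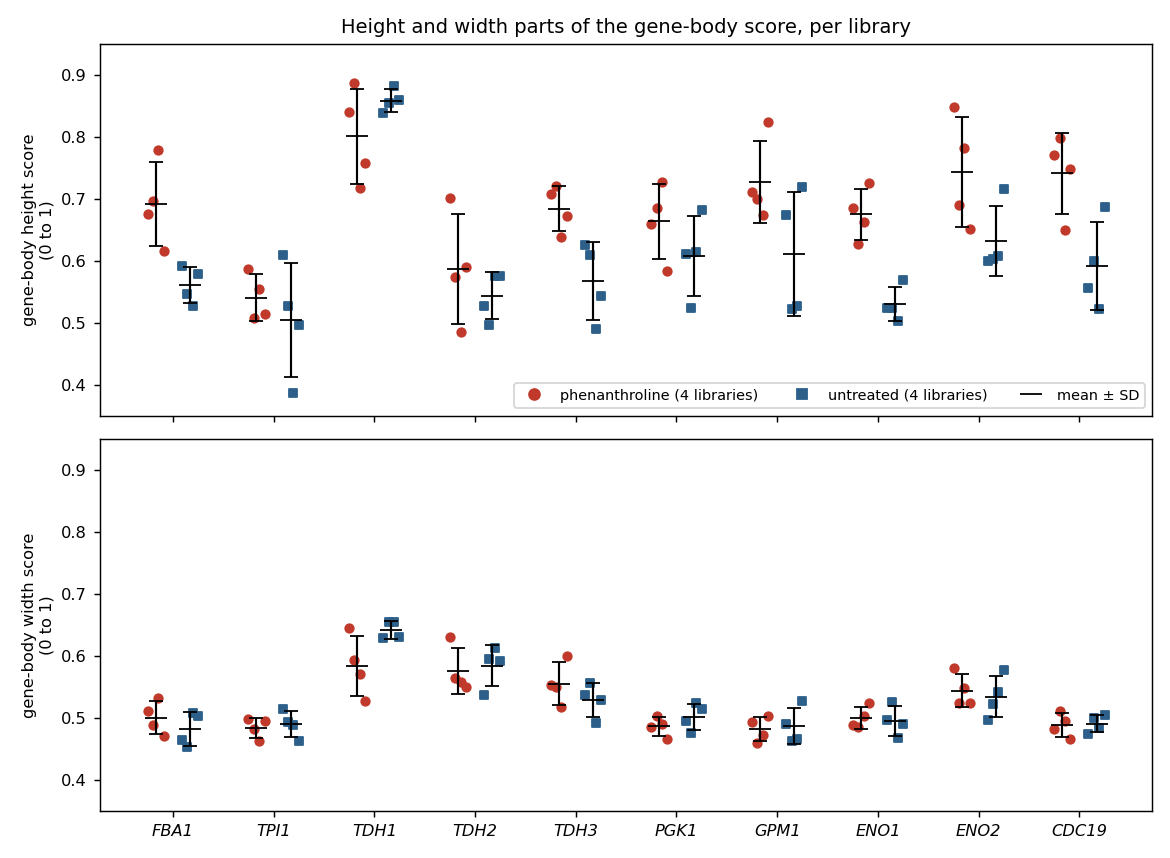
Mean height score (above) and mean width score (below) of the calls in each coding sequence, on the 0 to 1 scale of the scores, with 1 point per library and black lines for the mean ± SD of each group. Height scores of FBA1, TDH3 and ENO1 do not overlap between phenanthroline and untreated libraries, while width scores overlap in all 10 genes.

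Nucleosome by nucleosome, 10 of the 92 testable positions were called in score, 4 higher and 6 lower with phenanthroline, where 8.38% of the genome's 60146 positions were called (2.87% higher, 5.51% lower). Distances below are from the first base of the coding sequence to the dyad, and coordinates are on sacCer3. Phenanthroline and untreated libraries did not overlap at any of these 10. Of the genome's positions 6.32% lay higher without overlap and 10.9% lower. With 1 strain left out, the 10 calls became 2 without strain 1, 6 without strain 2, 7 without strain 3 and 2 without strain 4. With the strain block 5 of these 10 passed, and PGK1's nucleosome at -290 bp passed in addition.

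FBA1 (YKL060C) lies on the minus strand of chromosome XI, 326408 to 327487. Its nucleosome at +294 bp (position 327193) had scores of 0.752, 0.789, 0.731 and 0.711 with phenanthroline, against 0.535, 0.540, 0.593 and 0.690 untreated. It rose by 0.156 (SE 0.0376, adjusted p = 0.0408, or 0.0861 with the strain block, limma). TPI1 (YDR050C) lies on the minus strand of chromosome IV, 555726 to 556472, and no nucleosome of its window was called. Its smallest p-values were at +58 and +633 bp. The +58 nucleosome had 0.410, 0.354, 0.352 and 0.559 with phenanthroline, against 0.726, 0.682, 0.468 and 0.576 untreated (difference -0.195, adjusted p = 0.109, limma). The +633 nucleosome had 0.804, 0.691, 0.742 and 0.599 with phenanthroline, against 0.599, 0.477, 0.640 and 0.521 untreated (difference 0.150, adjusted p = 0.111, limma). The groups overlapped at both.

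The TDH genes encode 3 forms of glyceraldehyde-3-phosphate dehydrogenase. TDH2 (YJR009C, minus strand of chromosome X, 453683 to 454681) had the call with the largest difference of the 10, at its nucleosome 50 bp upstream of the start (position 454731). By the definition given further on, it is the +1 nucleosome of TDH2. There the scores were 0.381, 0.496, 0.562 and 0.492 with phenanthroline, against 0.849, 0.788, 0.745 and 0.726 untreated. All phenanthroline values lay far under the untreated ones, a fall by 0.294 (SE 0.0427, adjusted p = 0.00770, limma). Its height score averaged 0.379 ± 0.0671 with phenanthroline and 0.865 ± 0.0863 untreated (SD, n = 4 each).

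TDH1 (YJL052W, plus strand of chromosome X, 338271 to 339269) had a nucleosome at a like distance, 44 bp upstream of the start (position 338227). By the same definition it is the -1 nucleosome of TDH1. It scored 0.561, 0.670, 0.745 and 0.660 with phenanthroline, against 0.858, 0.810, 0.806 and 0.869 untreated, and fell by 0.177 (SE 0.0387, adjusted p = 0.0304, or 0.0667 with the strain block, limma). Its dyad also lay 19.5 bp farther downstream with phenanthroline (adjusted p = 0.0324, or 0.104 with the strain block, limma), the only dyad called among the 92, where 1.28% of all positions were. A second TDH1 nucleosome at -729 bp (position 337542) had 0.563, 0.498, 0.360 and 0.447 with phenanthroline, against 0.683, 0.741, 0.711 and 0.798 untreated. It fell by 0.266 (SE 0.0450, adjusted p = 0.0132, limma), and it lies beyond the near end of the neighbouring divergent gene YJL052C-A, 268 bp away.

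TDH3 (YGR192C, minus strand of chromosome VII, 882812 to 883810) had its call late in its coding sequence. The nucleosome at +774 bp (position 883036) had 0.547, 0.564, 0.592 and 0.648 with phenanthroline, against 0.471, 0.307, 0.455 and 0.446 untreated. It rose by 0.168 (SE 0.0408, adjusted p = 0.0420, or 0.0531 with the strain block, limma). Its neighbour at +586 bp differed by 0.118 without passing (adjusted p = 0.0937, limma). At +943 bp, the last position of the gene, the difference was -0.0190 (adjusted p = 0.898, limma). In height score alone the TDH3 nucleosome at -724 bp, which lies just inside the neighbour PDX1, fell by 0.164 (adjusted p = 0.00232, limma).

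PGK1 (YCR012W, plus strand of chromosome III, 137746 to 138996) had its call at the first nucleosome of the coding sequence, +78 bp (position 137824). The scores were 0.606, 0.673, 0.623 and 0.584 with phenanthroline, against 0.781, 0.712, 0.771 and 0.801 untreated. It fell by 0.145 (SE 0.0284, adjusted p = 0.0212, or 0.0673 with the strain block, limma), the only call lower inside a coding sequence. In the strain block fit the PGK1 nucleosome at -290 bp was called higher, with 0.793, 0.544, 0.653 and 0.693 with phenanthroline, against 0.568, 0.369, 0.429 and 0.505 untreated. The groups overlapped through the phenanthroline strain 2 and untreated strain 1 libraries. Its difference was 0.203, with adjusted p-values of 0.0230 with the block and 0.0737 without it (limma). GPM1 (YKL152C, minus strand of chromosome XI, 163642 to 164385) had its call 21 bp upstream of the start (position 164406). That nucleosome was weak in every library, with 0.363, 0.429, 0.372 and 0.380 with phenanthroline, against 0.540, 0.509, 0.510 and 0.474 untreated. It fell by 0.122 (SE 0.0241, adjusted p = 0.0218, or 0.0565 with the strain block, limma).

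ENO1 (YGR254W, plus strand of chromosome VII, 1000927 to 1002240) had its call at +1038 bp (position 1001965). The scores were 0.686, 0.659, 0.631 and 0.698 with phenanthroline, against 0.530, 0.485, 0.406 and 0.511 untreated, a rise of 0.186 (SE 0.0314, adjusted p = 0.0132, limma). This was the largest rise of the 4, and the height score there averaged 0.835 ± 0.0487 with phenanthroline and 0.488 ± 0.0901 untreated (SD, n = 4 each). In both treatments the libraries labelled strains 2 and 4 had a further call at +968 to +977 bp, which got no consensus position. It scored 0.632 and 0.682 with phenanthroline, against 0.507 and 0.508 untreated. The part of this call in the rise was not tested. ENO2 (YHR174W, plus strand of chromosome VIII, 451327 to 452640) had no call in score within its coding sequence. Its nucleosome at +835 bp rose in height score, by 0.191 (adjusted p = 0.0210, or 0.0723 with the strain block, limma). Far upstream, at -827 bp (position 450500) and past the near end of the divergent neighbour YHR173C, ENO2's window held a nucleosome with 0.415, 0.583, 0.497 and 0.583 with phenanthroline, against 0.806, 0.840, 0.667 and 0.773 untreated. It fell by 0.252 (SE 0.0495, adjusted p = 0.0215, limma), and was the only one of the 92 called in width score, where 3.24% of all positions were.

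CDC19 (YAL038W, plus strand of chromosome I, 71786 to 73288) had its call near the end of the gene, at +1314 bp (position 73100). The scores were 0.747, 0.766, 0.742 and 0.700 with phenanthroline, against 0.624, 0.613, 0.542 and 0.541 untreated. It rose by 0.159 (SE 0.0280, adjusted p = 0.0151, limma). The 5 testable nucleosomes from +395 to +1150 bp had positive differences of 0.0633 to 0.114, none of which passed. Upstream, the nucleosome at -164 bp had 0.529, 0.302, 0.448 and 0.392 with phenanthroline, against 0.613, 0.460, 0.593 and 0.673 untreated (difference -0.167, adjusted p = 0.115, limma).

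**Figure D3:**
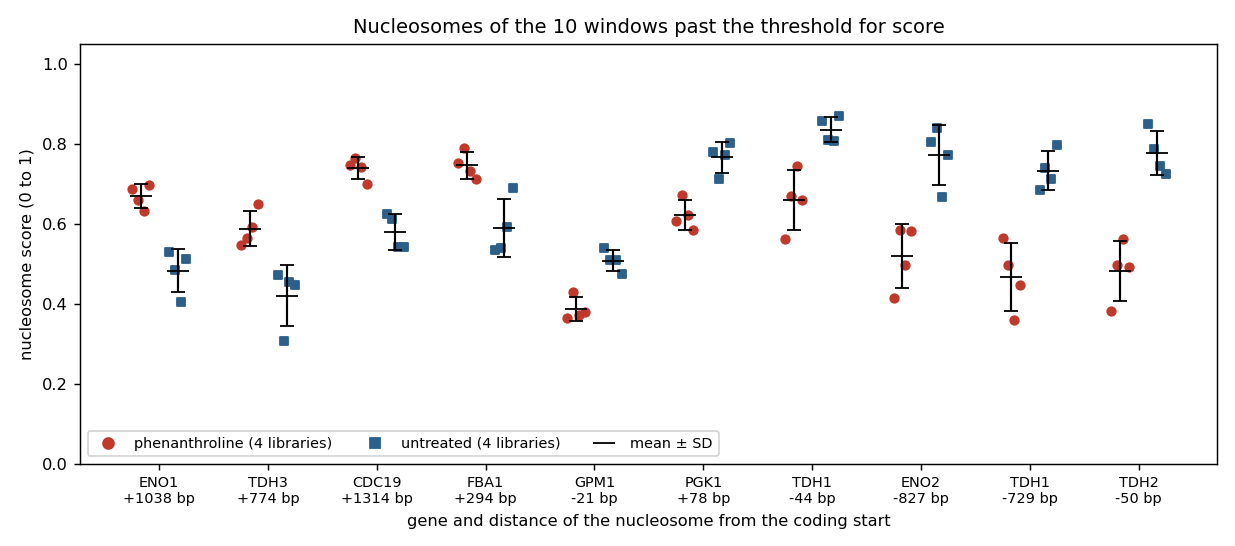
Scores of the 10 called nucleosomes (0 to 1 scale), 1 point per library with black lines for the mean ± SD, phenanthroline left of untreated. The 2 groups are apart at each nucleosome, and the TDH2 nucleosome at -50 bp has the widest distance between means, -0.294.

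Grouped by place, the testable nucleosomes of the coding sequences and those upstream of them differed in sign. In coding sequences 39 of 57 differences in score were positive, against 23594 of 47486 over all genes. The median of the 57 was 0.0513, against -0.000506 over the coding sequences of all genes. Of these 57, 4 were called higher and 1 lower, where 3.4% and 3.49% of nucleosomes in coding sequences of any gene were called in those directions. Within 250 bp upstream of the start 8 of 10 differences were negative, against 3391 of 5117 over all genes. The median of the 10 was -0.107, against -0.0217 over all genes. Of these 10, 3 were called lower, where 11.5% were in all genes. Farther upstream 18 of 25 were negative, against 11979 of 20260 over all genes. The median of the 25 was -0.0483, against -0.0113, and 2 were called lower, where 6.78% were in all genes. Over all places 12 positions were called in height score, where 9.92% of the genome's positions were. They were 5 higher and 1 lower in coding sequences (background 4.86% and 3.34%), 3 lower near the start (background 13.9%) and 3 lower farther upstream (background 7.29%). The one not yet named was PGK1's nucleosome at +1138 bp, with a rise of 0.151 (adjusted p = 0.0337, or 0.0762 with the strain block, limma). Fewer nucleosomes on the DNA and a changed digestion give the same lower height score and cannot be told apart here.

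**Figure D4:**
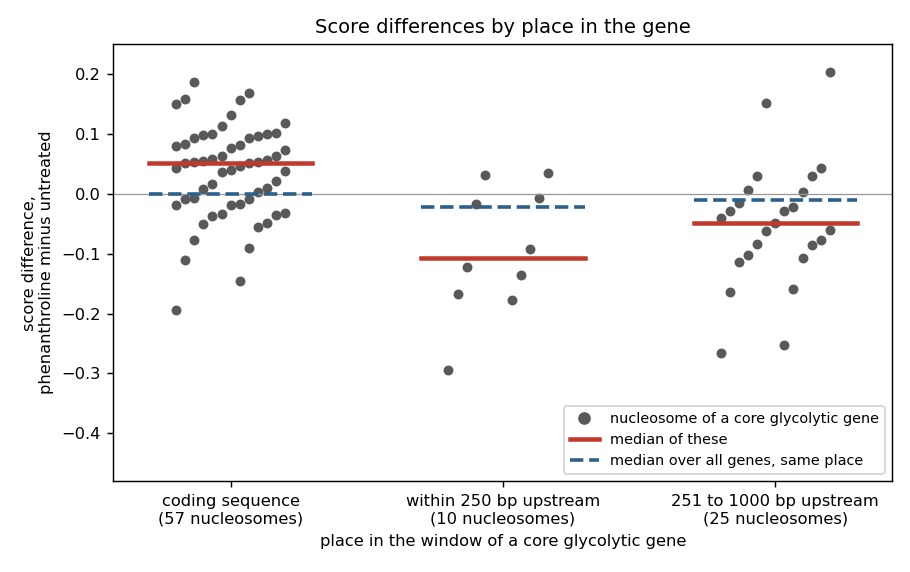
Phenanthroline minus untreated difference in nucleosome score for the 92 testable positions, grouped as coding sequence, within 250 bp upstream and farther upstream, with solid lines at their medians and dashed lines at the medians over all genes. The medians of the 10 genes are 0.0513, -0.107 and -0.0483 in that order of places.

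Close to the start several nucleosomes could not be tested because some libraries had no call. ENO2's nucleosome at -109 bp was called in 2 of 4 phenanthroline libraries, at 0.395 and 0.331, and in 4 of 4 untreated libraries at 0.447 to 0.651. TDH3's at -142 bp was called in 3 of 4 phenanthroline libraries, at 0.368 to 0.399, and in 4 of 4 untreated ones at 0.426 to 0.552. PGK1's at -133 bp was called in 3 of 4 phenanthroline libraries, at 0.376 to 0.392, and in 4 of 4 untreated ones at 0.364 to 0.577. ENO1's at -88 bp went the other way in number, called in 4 of 4 phenanthroline libraries at 0.315 to 0.473 and in 2 of 4 untreated ones at 0.517 and 0.569. ENO1's at -2 bp was called in 2 of 4 phenanthroline libraries and 4 of 4 untreated ones. Of the first 3, ENO2 and PGK1 lacked the call in the phenanthroline strain 2 library, ENO2 and TDH3 in the strain 3 library. The mean score of all calls within 250 bp upstream could be fitted for 7 genes. It was lower with phenanthroline in 7 of 7, and in 2974 of 4350 over all genes. The median difference of the 7 was -0.0646, against -0.0278 over all genes. None of the 7 passed limma's test, 2 had an unadjusted p under 0.05 and the smallest adjusted p was 0.138, while 13.9% of all genes were called lower.

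Positions were compared through the +1 and -1 nucleosomes, defined as the pair that flanks the widest gap near the start of the coding sequence. By this definition the -1 nucleosome of TDH1 is that at -44 bp and of FBA1 that at -20 bp. The +1 nucleosomes of TDH2 and ENO1 lie upstream of the start, at -50 and -88 bp. The +1 dyad could be fitted for 8 genes. TDH1's lay at 139, 140, 137 and 148 bp with phenanthroline, against 105, 103, 135 and 107 bp untreated. The groups did not overlap, although the untreated strain 3 library came within 2 bp of the nearest phenanthroline one. The shift was 28.4 bp downstream (SE 7.04, adjusted p = 0.0331, or 0.0707 with the strain block, limma). It was 37.2 bp without the strain 3 libraries (adjusted p = 0.00285) and 24.3 to 26.5 bp without any other strain (adjusted p = 0.121 to 0.169). In the dyad fit over all consensus positions the same shift did not pass (adjusted p = 0.0955, or 0.157 with the strain block, limma). TDH1 was the only gene of the 8 called, where 17.8% of all genes were called downstream and 1.95% upstream. The distance from the first to the last nucleosome could be fitted for 7 genes, where 13.7% of all genes were called shorter and 0.799% longer. TDH1 had 784, 784, 787 and 774 bp with phenanthroline, against 818, 824, 794 and 819 bp untreated, 31.4 bp shorter (adjusted p = 0.0266, or 0.0716 with the strain block, limma). This distance starts at the same +1 dyad, which differed by 28.4 bp, while the last nucleosome at +925 bp differed by -3 bp. It is therefore not a result separate from the +1 shift. CDC19 averaged 1459 ± 7.80 bp with phenanthroline and 1438 ± 7.14 bp untreated (SD, n = 4 each), 21.0 bp longer (adjusted p = 0.0382, or 0.0955 with the strain block, limma). The untreated distances were 1436.5, 1429.5, 1440.5 and 1446.5 bp, against 1466, 1461, 1462 and 1448 bp with phenanthroline. The +1 dyads of CDC19 were whole numbers, so in untreated libraries its last call had a span other than that of most calls. The last nucleosome, at +1495 bp, differed by 18.5 bp (adjusted p = 0.0721, limma) and the +1 dyad by -2.5 bp. The part of call span in the CDC19 difference was not tested. Without any 1 strain the CDC19 difference was 17.5 to 27.5 bp and did not pass (adjusted p = 0.0519 to 0.178), and the TDH1 one passed only without strain 3 (0.00922; otherwise 0.104 to 0.145). The median over the 7 genes was -16.4 bp, against -9 bp over all genes.

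The distance between the -1 and +1 nucleosomes could be fitted for FBA1, TPI1, TDH1, TDH2 and CDC19. None of the 5 passed limma's test, while 26% of all genes did. That share was 0.684% with the strain block, and ran from 0.285% to 31.3% with 1 strain left out. TPI1 alone of the 5 had an unadjusted p under 0.05, at 257 ± 9.46 bp with phenanthroline and 243 ± 7.09 bp untreated (SD, n = 4 each, adjusted p = 0.0870). The widest upstream gap, fitted for 8 genes, was called only at TPI1, where it was narrower. It measured 360, 364, 351 and 354 bp with phenanthroline, against 376, 367, 381 and 373 bp untreated. The groups did not overlap, and the difference was -17.0 bp (SE 4.00, adjusted p = 0.0241, or 0.0713 with the strain block, limma). The adjusted p was 0.130 without strain 1 and 0.118 without strain 4. Over all genes 2.26% were called narrower and 26.8% wider. The TPI1 nucleosome at -192 bp is both its -1 nucleosome and the near end of this gap, so the 2 TPI1 results share it. Its dyad differed by -14.75 bp in the direction of the gene and was not called (adjusted p = 0.104, or 0.184 with the strain block, limma).

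The paralogs had in common a long stretch of coding sequence with few calls. Between consensus positions called in at least 4 of the 8 libraries, the widest step ran from +430 to +751 bp in TDH1, from +483 to +827 bp in TDH2 and from +229 to +586 bp in TDH3, steps of 321, 344 and 357 bp. ENO1 had a step of 387 bp from +457 bp and ENO2 one of 381 bp from +454 bp. In the other 5 genes the widest step was 132 to 209 bp, and the median over 4943 genes was 182 bp. A step of 300 bp or more, a limit set after the values were seen, occurred in 1.72% of those genes.

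The stretches were not empty, and calls too close to a stronger consensus position got no position of their own. TDH3 had such a call at +504 to +520 bp in each of the 8 libraries, with scores of 0.572 to 0.666 with phenanthroline and 0.431 to 0.609 untreated. It shortens the TDH3 stretch, in which 1 phenanthroline and 2 untreated libraries also had a call at +297 to +307 bp. TDH2 had a call at +762 to +769 bp in 2 phenanthroline libraries and 1 untreated one. TDH1 had one at +601 and +608 bp in 2 phenanthroline libraries and no untreated one, and ENO2 one at +561 and +568 bp in 2 phenanthroline libraries and no untreated one. ENO1 had calls inside its step in 3 phenanthroline and 4 untreated libraries. Within single libraries, where every call counts, the widest distance between neighbouring dyads of the TDH3 coding sequence was 219 to 290 bp with phenanthroline and 198 to 282 bp untreated. It was 282 to 345 bp with phenanthroline and 282 to 343 bp untreated at TDH2, and 164 to 324 bp with phenanthroline and 320 to 326 bp untreated at TDH1. ENO1 had 198 to 346 bp with phenanthroline and 208 to 318.5 bp untreated, and ENO2 237 to 384.5 bp with phenanthroline and 375.5 to 393 bp untreated. Measured in this way, the median over the 8 libraries was 322 bp at TDH1, 313 bp at TDH2, 255.5 bp at TDH3, 289 bp at ENO1 and 379 bp at ENO2, against 183 bp for the median of 4941 genes. These 5 genes lay at the 97.7th to 99.3rd percentile of all genes, and CDC19, with 217 bp, at the 95.1st. The TDH genes, and likewise ENO1 and ENO2, are paralogs of similar sequence, to a degree that was not examined here and can differ between pairs. How reads that match several copies were counted is not given in the sources used here. Scores of these 5 genes are uncertain for that reason, and its part in the stretches was not tested.

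**Figure D5:**
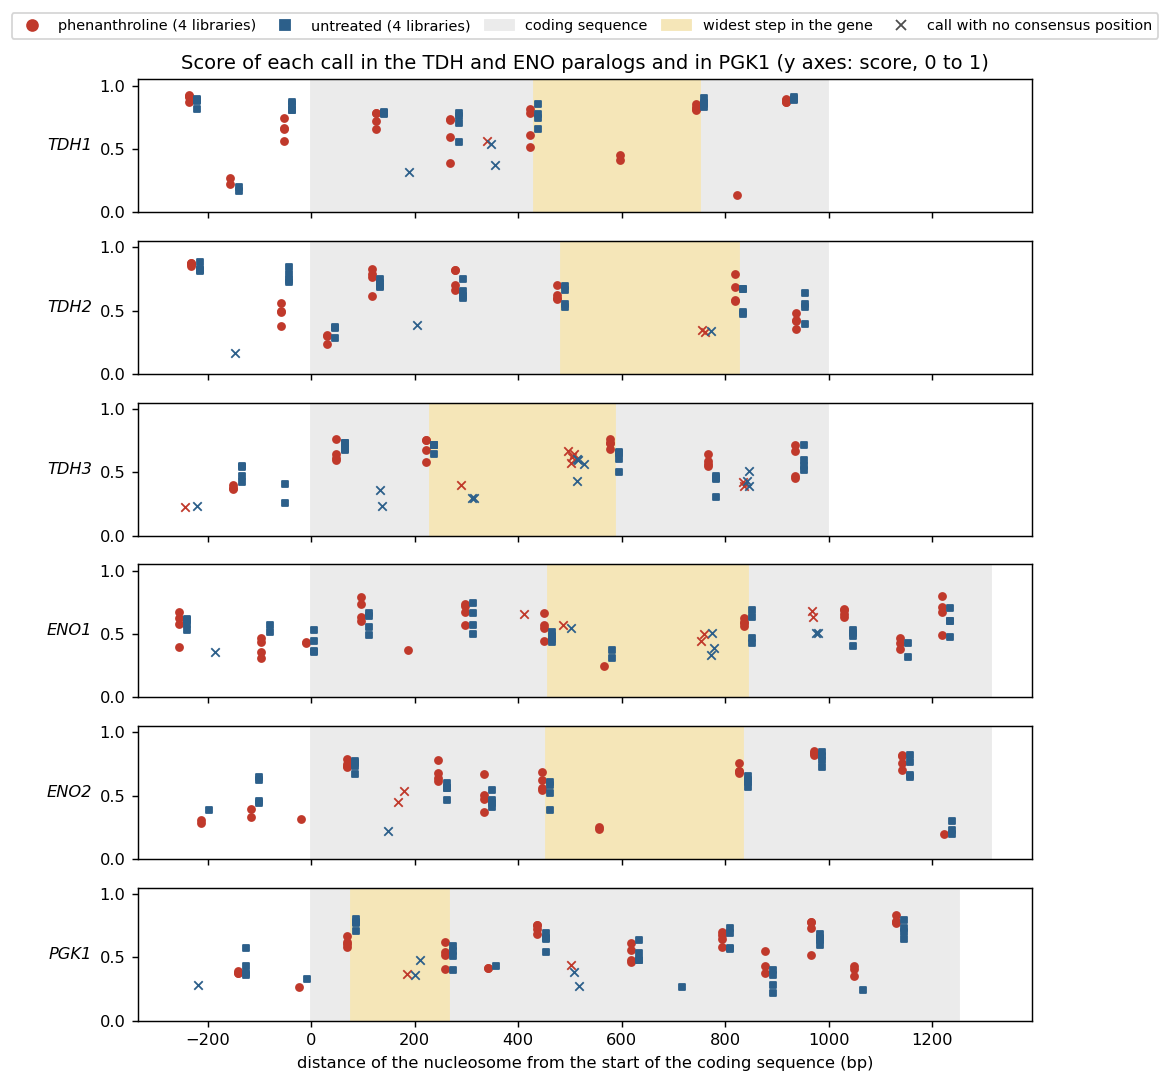
Nucleosome score (0 to 1) of each library's call at the consensus positions of TDH1, TDH2, TDH3, ENO1, ENO2 and, for comparison, PGK1, by distance from the start of the coding sequence (bp), with phenanthroline points left of untreated ones and crosses for calls that have no consensus position. The shaded widest step between consensus positions called in at least 4 libraries measures 321 to 387 bp in the 5 paralogs and 189 bp in PGK1, and in TDH3 crosses of all 8 libraries lie inside it at +504 to +520 bp.

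TDH1 scored above its copies in each library. The gene-body score of TDH1 exceeded that of TDH2 by 0.111 ± 0.0463 with phenanthroline and by 0.187 ± 0.0223 untreated (SD, n = 4 each). It exceeded that of TDH3 by 0.0724 ± 0.0485 with phenanthroline and by 0.203 ± 0.0554 untreated. TDH2 minus TDH3 was -0.0382 ± 0.0492 with phenanthroline and 0.0160 ± 0.0724 untreated. ENO1 minus ENO2 was -0.0558 ± 0.0699 with phenanthroline and -0.0704 ± 0.0391 untreated. Whether the treatment difference itself differed between copies was tested by an exact two-sided permutation test over libraries, for which the smallest possible p is 0.0286. The phenanthroline minus untreated difference was -0.130 for TDH1 minus TDH3 (exact p = 0.0286, 0.114 adjusted over the 4 pairs). It was -0.0761 for TDH1 minus TDH2 (exact p = 0.0571, adjusted 0.114), -0.0542 for TDH2 minus TDH3 (exact p = 0.171, adjusted 0.229) and 0.0146 for ENO1 minus ENO2 (exact p = 0.8286). No pair passed after adjustment. Well-positioned calls made up 21 of 47 in the TDH1 window with phenanthroline and 31 of 44 untreated, summed over 4 libraries each. In the TDH2 window they were 21 of 42 with phenanthroline and 22 of 43 untreated, and in the TDH3 window 18 of 44 with phenanthroline and 14 of 50 untreated. In the ENO1 window they were 2 of 55 with phenanthroline and 4 of 55 untreated. In the ENO2 window they were 17 of 53 with phenanthroline and 24 of 52 untreated.

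Other genes of the pathway were counted by list. Of 6 upper glycolysis genes (HXK1, HXK2, GLK1, PGI1, PFK1 and PFK2), gene-body score rose in 1 and fell in 1, and height rose in 2 and fell in 1. Over all genes 3.16% were called higher and 3.65% lower in score, and 8.93% higher and 5.48% lower in height. PFK1, a subunit of phosphofructokinase, had 0.477, 0.491, 0.487 and 0.499 with phenanthroline, against 0.404, 0.431, 0.406 and 0.428 untreated, a rise of 0.0714 (adjusted p = 0.0261, limma) with no overlap. Its partner subunit PFK2 rose in height only, by 0.102 (adjusted p = 0.0272, or 0.0527 with the strain block, limma). HXK1, a hexokinase, had a gene-body score that fell by 0.0663 (adjusted p = 0.0471, limma), and its -1 to +1 distance was 34.9 bp shorter (adjusted p = 0.0372, or 0.0629 with the strain block). The +1 dyad of the glucokinase gene GLK1 lay 14.2 bp farther downstream (adjusted p = 0.0224, or 0.0689 with the strain block, limma).

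Among 6 minor isozymes and enolase-related genes (PYK2, GPM2, GPM3, ERR1, ERR2 and ERR3), 3 could be fitted in gene-body score and 0 passed limma's test. Of those 3, 1 had an unadjusted p under 0.05, GPM2, with a difference of 0.0698 (adjusted p = 0.0914). GPM3 had its +1 dyad 11.8 bp farther downstream, its -1 to +1 distance, which is also its widest upstream gap, 15.2 bp wider and its first-to-last distance 32.2 bp shorter (adjusted p = 0.0231, 0.0250 and 0.0153, limma). Only the last of these held with the strain block (adjusted p = 0.0476), and tested as an upstream gap the wider distance had adjusted p-values of 0.0232 without the block and 0.0537 with it (limma). The gluconeogenic genes FBP1 and PCK1 were not called in gene-body score (0 of 2 at an unadjusted p under 0.05; PCK1 -0.0453, adjusted p = 0.266, limma). Their widest upstream gaps were wider, by 12.8 bp at FBP1 and 16.8 bp at PCK1 (adjusted p = 0.0130 and 0.0321, limma), as were those of 26.8% of all genes. Of the 4 regulators GCR1, GCR2, RAP1 and TYE7, 0 were called in gene-body score by limma (2 at an unadjusted p under 0.05). GCR2 differed in gene-body width score by -0.0714, with an adjusted p of 0.0622, or 0.0348 with the strain block (limma). RAP1 rose in gene-body height by 0.129 (adjusted p = 0.0277, limma). GCR1 fell in the score within 250 bp upstream of its start by 0.0914 (adjusted p = 0.0475, or 0.129 with the strain block, limma).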

How the data were processed

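MNase-seq calls of 8 libraries were used. Each call's score, with its height and width parts, was deposited by the authors as nucleR output, per the file headers, on sacCer3, per the submitters' processing notes. Per the labels' protocols, sequencing aimed at some 10 M read pairs a sample, and digestion was adjusted until about 80% of the product was mononucleosomes. For the aligner, the read filters, the nucleR settings and the depth per library, nothing is given in the sources used here. Between 91.4% and 92.9% of calls span 147 bp.

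The shift of 81 bp was subtracted beyond each insertion site wherever calls showed it (16 of 64 pairs of library and site; the largest other step was 6.5 bp). Dyads were pooled (Gaussian kernel, SD 20 bp, peaks at least 80 bp apart), and calls were assigned to the nearest consensus position within 60 bp, 1 per library and position. That left 6.74% to 9.28% of a library's calls, and 9.04% of those in the windows, with no consensus position. They enter gene-body means but no test by nucleosome. Genes needed 3 calls in every library for a gene-body mean. Coordinates of genes came from RefSeq (R64, the same build). Each table of all genes or positions was fitted whole with limma 3.58.1 in R 4.3.3 (phenanthroline minus untreated, no block), with Benjamini-Hochberg adjustment over the table and a threshold of 0.05. Differences are on the score scale or in bp. The scripts were tested on simulated data. Python 3.11.15 with scipy 1.17.1 gave the exact permutation tests.

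Libraries with one strain number are the same strain by the labels, so the numbers pair them. Deviations from the group means in gene-body score correlated at 0.0912, 0.343, 0.122 and 0.0810 for strains 1 to 4. A fit with the strain number as a block was an alternative, beside other alternatives given in the closing section. Nothing says the cultures were independent beyond their strain, so p-values measure the spread between these 4 libraries per group.

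All 10 genes are named, with every nucleosome past the threshold for score, or else the 2 with the smallest p in the window. From the other lists each gene past the threshold is named, or else the one with the smallest p in gene-body score. The members and lists were chosen with earlier results of these data known. The upstream gap and the score near the start were added after the data were seen. Promoter sequences were not used here.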

Additional observations from a re-analysis of the deposited data

Results flagged for a closer look

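Among 110 groups of 4 libraries, 5 had 1 library far from the other 3; chance alone gives about 1 in 20. The gene-body score of TDH3 was 0.578 in the phenanthroline library labelled strain 3, against 0.630 to 0.636 in the other phenanthroline libraries. The gene-body height score of ENO2 was 0.716 in the untreated strain 4 library, against 0.599 to 0.608 in the other untreated ones. Both libraries are those in which the 81 bp shift was subtracted for that gene. The subtraction moves the coordinates of a call and not its scores, and its part here was not tested. No shift was subtracted for the flagged values of TDH2, TDH1 and CDC19 that follow. The +1 dyad of TDH2 lay at -21 bp in the phenanthroline strain 1 library, against -52 to -48 bp in the others of its group. The +1 dyad of TDH1 lay at 135 bp in the untreated strain 3 library, against 103 to 107 bp in the others of its group. The mean score within 250 bp upstream of CDC19 was 0.613 in the untreated strain 1 library, against 0.443 to 0.460 in the others of its group.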

How the results depend on the processing

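With the strain number as a replicate block, the counts of called members were 2 in gene-body score (1 without the block), 0 in +1 position (1), 0 in first-to-last distance (2), 0 in upstream gap (1), 6 nucleosomes in score (10), 6 in height (12), 3 in width (1) and 0 in dyad (1); over all genes the share called in +1 position also went to 0.305% from 19.7%. Among single values the block changed no call other than those given beside their results and the nucleosomes in these counts. With the block the share of all genes called was 0.684% in -1 to +1 distance (26.0% without). It was 2.80% in first-to-last distance (14.5% without) and 7.73% in upstream gap (29.0% without). Gene-body score gave 0 called members with calls of at least 0.4 only, 4 with centring on the library median and 2 with the median over calls. The nucleosome counts were 6 in score with calls of at least 0.4, 0, 2 and 2 in width with coordinates as deposited, calls of at least 0.4 and assignment within 30 bp, and 2 in dyad with assignment within 30 bp. The upstream gap gave 0 with coordinates as deposited. Centring turned the split of all calls in height to 826 higher and 174 lower (455 and 279 without), in width to 60 and 35 (29 and 175), and over all nucleosomes in score to 2840 and 2184 (1726 and 3312), in height to 3713 and 3180 (2407 and 3557) and in width to 1248 and 574 (573 and 1378).

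Leaving out each strain in turn gave 0 to 1 called members in gene-body score, 0 to 2 in height, 0 to 1 in -1 to +1 distance, 0 to 1 in +1 position, 0 to 1 in first-to-last distance, 0 to 1 in upstream gap and 0 to 1 in the score near the start. It gave 2 to 7 nucleosomes in score (2 without strain 1 or 4), 7 to 12 in height, 0 to 3 in width and 0 to 2 in dyad. Fewer libraries enter these fits, and the share of all genes called in gene-body score was 0.0589% without strain 1, 5.38% without strain 2, 2.85% without strain 3 and 0.236% without strain 4. The ENO1 minus ENO2 change ran from -0.0318 to 0.0496, with the sign turned without strain 4.

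None of the differences that changed sign was called. The PGK1 gene-body score was -0.0185 with calls of at least 0.4 and -0.0129 with the median over calls, and the ENO2 +1 position -16.5 bp with the call nearest to the start as +1. Leaving out strains, gene-body scores ran from -0.00345 to 0.0265 (TPI1), -0.0206 to 0.0479 (TDH2) and -0.00444 to 0.0517 (PGK1), and TPI1 height from -0.00805 to 0.0549. Positions of +1 ran from -3.33 to 1.67 bp (TPI1), -7 to 10.5 bp (TDH3) and -11 to 1.67 bp (CDC19). First-to-last distances ran from -20.8 to 8.83 bp (FBA1) and -5.67 to 2.67 bp (TPI1). Upstream gaps ran from -2.67 to 6.33 bp (TDH2), -7.17 to 23.3 bp (PGK1), -5.33 to 2.67 bp (GPM1), -4.67 to 9.33 bp (ENO2) and -0.667 to 14.7 bp (CDC19). The cause of each of these changes was not tested.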
